A study of Mus musculus with 8 samples.

Results

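The mRNAs of 6 genes that olfactory sensory neurons (OSNs) are described as adjusting to their own activity were followed here in single mice: S100a5, Rasgrp4, Kirrel2, Kirrel3, Pcp4l1 and Lrrc3b. They were taken by symbol from 21789 array features that the annotation gave to exactly 1 gene, and all 6 were found, each with 1 feature and none removed by a filter on low signal. The 6 were proposed with results of this comparison already known. They count as selected on their knockout minus control differences, which are therefore given as a description. RNA came from the whole olfactory mucosa of 8 mice at postnatal day 1 (P1), with 1 microarray per mouse.

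The 4 knockouts were OmpCre:Emx2 fl/fl mice, in which both copies of Emx2 carried loxP sites. Emx2 encodes a homeodomain transcription factor of OSNs. The 4 controls were littermates in which at most 1 copy could recombine. Of these, 3 (controls 1 to 3) were labelled with the genotype OmpCre:Emx2 fl/+, and the remaining control 4 with both floxed copies but no Cre. All 8 mice were of mixed 129 x C57BL/6J background. OmpCre is Cre recombinase placed in the Omp gene, used by mature OSNs, so mice with OmpCre have lost 1 copy of Omp and recombination is limited to cells that use this gene. The mice came from a few litters that the labels do not name, both sexes were used, and the mice are taken as separate animals from their labels.

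OSNs that fire often and OSNs that fire rarely differ in the mRNAs they hold. Odorants reach the nucleus through cAMP, the cyclic nucleotide-gated channel, calcium and transcription factors such as CREB, and the basal activity of the odorant receptor sets cAMP levels where no odorant is present. S100a5 encodes an EF-hand calcium-binding protein whose expression falls in OSNs deprived of odorants. Kirrel2 and Kirrel3 encode homophilic adhesion molecules of the immunoglobulin superfamily that help axons of like OSNs to gather into glomeruli, and they are known for complementary use, with Kirrel2 high and Kirrel3 low in active OSNs. Rasgrp4 encodes a guanine nucleotide exchange factor for Ras that is also made in mast cells. Pcp4l1 encodes a small IQ-motif relative of the calmodulin regulator Pcp4, and Lrrc3b a membrane protein with leucine-rich repeats.

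The sequence upstream of the start site was shown for the members found in a RefSeq promoter table of mouse assembly GRCm38.p6, as background to their levels. The table held 4 of the 6. S100a5 and Kirrel2 are shown as members with less signal in knockouts, and Pcp4l1 and Lrrc3b as the pair that varied most closely together. Each line gives the 250 bases before the start, read 5′ to 3′ on the strand of the gene. The S100a5 stretch is chr3:90608272-90608521 on the plus strand, at a start inside the annotated span of the gene. The Kirrel2 stretch is chr7:30457516-30457765, that of Pcp4l1 chr1:171196269-171196518 and that of Lrrc3b chr14:15438988-15439237, all on the minus strand.
S100a5: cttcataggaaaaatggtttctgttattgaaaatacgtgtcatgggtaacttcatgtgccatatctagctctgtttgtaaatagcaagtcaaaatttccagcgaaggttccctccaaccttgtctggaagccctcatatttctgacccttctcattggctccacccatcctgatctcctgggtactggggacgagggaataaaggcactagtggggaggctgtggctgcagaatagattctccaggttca
Kirrel2: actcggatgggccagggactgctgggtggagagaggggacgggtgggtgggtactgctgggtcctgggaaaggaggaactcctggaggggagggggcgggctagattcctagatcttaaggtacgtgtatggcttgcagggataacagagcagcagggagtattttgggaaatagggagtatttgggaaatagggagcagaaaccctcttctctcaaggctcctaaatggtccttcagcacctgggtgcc
Pcp4l1: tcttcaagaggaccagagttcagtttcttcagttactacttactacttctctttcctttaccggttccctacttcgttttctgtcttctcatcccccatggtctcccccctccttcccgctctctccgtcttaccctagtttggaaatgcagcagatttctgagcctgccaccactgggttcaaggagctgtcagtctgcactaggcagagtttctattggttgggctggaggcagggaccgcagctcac
Lrrc3b: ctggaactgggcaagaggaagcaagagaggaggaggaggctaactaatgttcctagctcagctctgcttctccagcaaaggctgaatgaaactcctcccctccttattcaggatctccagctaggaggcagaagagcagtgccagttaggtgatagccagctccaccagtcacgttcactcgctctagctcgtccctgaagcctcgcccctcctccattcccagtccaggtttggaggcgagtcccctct
No letter is in capitals because none of the motifs searched was present. These were TGACGTCA, the cAMP response element, its shorter core TGACG, the palindromic O/E-like motif of Ebf factors and the homeodomain core TAATTA, each on both strands of the 300-base window that ends 50 bases after the start. Of 32851 mouse promoters, 1.79% held TGACGTCA, 20.8% TGACG, which lies inside TGACGTCA, 0.904% the O/E-like motif and 5.29% TAATTA, against 0 of these 4. The share of G and C was 46.0% in the S100a5 stretch, 56.4% in Kirrel2, 51.6% in Pcp4l1 and 56.0% in Lrrc3b.

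Array medians lay between 8.64 and 8.68 log2 units and correlations between arrays between 0.985 and 0.994. Control 2 stood apart, since the leading principal component (32.5% of all variance) placed it at 32.9 and the other arrays at -11.83 to 6.11. Defining markers of the tissue were high in the array: Omp exceeded 98.9% of features by mean signal, Cnga2 97.6% and the sustentacular enzyme gene Cbr2 99.9%. Emx2 itself, measured over all of its exons, had log2 signals of 10.25, 10.14, 10.34 and 10.14 in knockouts 1 to 4 and 10.83, 10.74, 10.58 and 10.89 in controls 1 to 4. Every knockout thus lay below every control, by -0.55 ± 0.08 on average (SE, limma adjusted p = 0.201). Omp, which should have 1 copy fewer in every mouse with OmpCre, had log2 signals of 12.76, 12.67, 12.91 and 12.60 in knockouts 1 to 4 and 13.43, 12.72, 12.56 and 13.29 in controls 1 to 4. Control 1, labelled with OmpCre, thus had the highest Omp signal, near that of control 4 without Cre, which goes against its label, and whether its label holds was not tested. Results are therefore also given without controls 1 and 4, a setting chosen after the values were seen. In whole mucosa, fewer cells of a type and less RNA per cell cannot be told apart. Values below are log2 signals, on which a difference of 1 is a doubling, and differences are knockout minus control with the SE from limma and 4 mice in each group.

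S100a5 showed the largest difference of the 6 genes. Its log2 signal was 12.25, 12.70, 12.57 and 12.60 in knockouts 1 to 4, against 13.27, 13.10, 12.83 and 13.23 in controls 1 to 4. All knockouts lay below all controls, with a gap of 0.131 between knockout 2 and control 3, the nearest mice of the groups. Means were 12.53 ± 0.19 in knockouts and 13.11 ± 0.20 in controls (SD, n = 4 each), a difference of -0.58 ± 0.12, a change of -33.0% in signal (fold 0.670, 95% interval 0.554 to 0.811). Expressed against the control mean, the knockouts were at 55.3%, 75.3%, 68.7% and 70.5%. S100a5 was a highly expressed gene on this array, above 98.8% of features by mean signal. By limma p it stood at rank 52 of 21789, and it did not pass after Benjamini-Hochberg adjustment over all features (limma adjusted p = 0.459). The difference was -0.67 without control 3 and -0.49 without knockout 1, the extremes of leaving out 1 mouse.

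Rasgrp4 was next in size. Its log2 signal was 8.65, 8.93, 8.88 and 8.83 in knockouts 1 to 4 and 9.18, 9.48, 8.96 and 9.48 in controls 1 to 4. The groups did not overlap, but control 3 came within 0.0254 of knockout 2. Means were 8.82 ± 0.12 in knockouts and 9.27 ± 0.26 in controls (SD, n = 4 each), so the controls were the more spread group. The difference was -0.45 ± 0.12, a change of -27.0% in signal (fold 0.730, 95% interval 0.601 to 0.887, limma adjusted p = 0.739). Its mean lay above only 47.7% of features, so this gene was measured near the middle of the range of the array, where S100a5 was near the top.

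Kirrel2 was lower in 3 of 4 knockouts than in any control. Its log2 signal was 10.85, 10.90, 11.07 and 10.83 in knockouts 1 to 4, against 11.26, 11.25, 11.02 and 11.42 in controls 1 to 4. The groups overlapped because knockout 3 lay above control 3. The difference was -0.33 ± 0.09, a change of -20.4% in signal (fold 0.796, 95% interval 0.691 to 0.916, limma adjusted p = 0.739).

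Kirrel3, the other adhesion gene, had nearly the same mean in both groups. Its log2 signal was 10.14, 10.05, 10.24 and 10.07 in knockouts 1 to 4 and 10.29, 10.01, 9.92 and 10.16 in controls 1 to 4, so that the knockouts lay wholly within the range of the controls. The difference was 0.03 ± 0.08 (fold 1.02, 95% interval 0.895 to 1.17, limma adjusted p = 0.970), and its sign turned without knockout 3 (-0.0064) and without control 3 (-0.0253). Because the 2 adhesion genes are known for opposite use, their log2 signals were also subtracted within each mouse, a measure chosen after the values were seen and given with no test. Kirrel2 minus Kirrel3 was 0.70, 0.85, 0.82 and 0.76 in knockouts 1 to 4, against 0.97, 1.25, 1.10 and 1.26 in controls 1 to 4. The groups did not overlap on this measure, whereas they did for Kirrel2 alone, with means of 0.78 ± 0.06 in knockouts and 1.15 ± 0.14 in controls (SD, n = 4 each). The knockout minus control value of -0.36 ranged from -0.42 to -0.32 when each mouse was left out, and scaling an array by 1 factor cannot change it. The absolute size of the subtraction in 1 mouse has no meaning across probes of different genes. Within groups the 2 genes tended to vary in the same direction over the mice (Pearson r = 0.70, given below). Whether single OSNs used them in opposite ways was not tested.

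Pcp4l1 and Lrrc3b overlapped between the groups. Pcp4l1, like S100a5 among the brightest features (above 98.0%), had log2 signals of 12.26, 12.41, 12.60 and 12.35 in knockouts 1 to 4 and 12.60, 12.52, 12.38 and 12.58 in controls 1 to 4. Knockout 3 was as high as the highest control, and the difference was -0.12 ± 0.08 (fold 0.923, 95% interval 0.812 to 1.05, limma adjusted p = 0.910). Lrrc3b had log2 signals of 9.69, 9.72, 10.06 and 9.71 in knockouts 1 to 4 and 10.03, 9.89, 9.66 and 9.93 in controls 1 to 4. Here knockout 3 was the highest of all 8 mice and control 3 the lowest, and the difference was -0.08 ± 0.10 (fold 0.944, 95% interval 0.801 to 1.11, limma adjusted p = 0.935). Without knockout 3 it was -0.17, and without control 1 -0.03. For Pcp4l1 the same omissions of 1 mouse ran from -0.18 without knockout 3 to -0.07 without knockout 1.

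**Figure D1:**
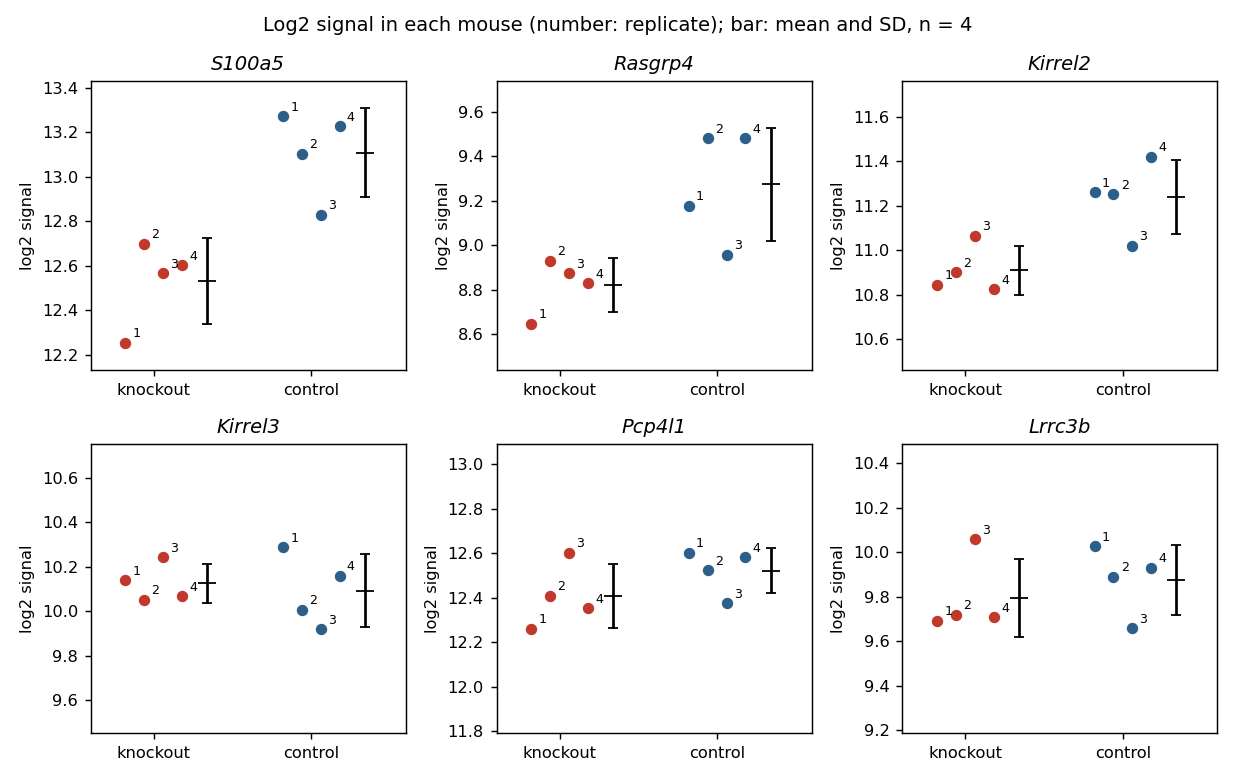
Log2 signal (y axis, a range of 1.3 units in every panel) of the 6 genes in each mouse, with knockouts left and controls right, numbers giving the replicate and bars the mean and SD of 4 mice. S100a5 and Rasgrp4 do not overlap between groups, Kirrel2 overlaps through knockout 3 and control 3, and Kirrel3, Pcp4l1 and Lrrc3b overlap widely.

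As a set, 5 of the 6 genes had the lower mean in knockouts, where 48.6% of all features did. The groups did not overlap, with knockouts lower, in 2 of 6, where this held for 1.48% of all features, and with knockouts higher in 0 of 6, where it held for 1.62%. Limma p was under 0.01 with knockouts lower in 3 of 6 (S100a5, Kirrel2 and Rasgrp4), where it was in 0.601% of all features, and with knockouts higher in 0 of 6 (0.61% of all features). This count fell to 1 of 6, S100a5 alone, by the methods' t-test, with scaling to mature OSN markers, with the Y-linked covariate, and without knockout 1, knockout 4, control 2 or control 4. It was 2 of 6 without knockout 2, knockout 3 or control 1, and 0 of 6 without controls 1 and 4. At p under 0.05 with all mice these were the same 3 lower genes and 0 higher ones, where 2.55% of all features were lower and 2.62% higher. None of the 6 passed the adjusted threshold of 0.05, nor did any other feature (0 of 21789, 0%), although 1126 features were at an unadjusted limma p under 0.05 and the methods' t-test also left 0 after adjustment. The median of the 6 differences was -0.22, beside 0.0024 over all features. Since these 6 were assembled with knowledge of the same arrays, the counts describe them and support nothing further.

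Relatives of the 6 genes, from lists of their families, were read beside them. Of 14 S100 genes besides S100a5, 10 had a lower and 4 a higher mean in knockouts, with a median difference of -0.06 and 0 past adjustment. S100a3, which lies beside S100a5 on chromosome 3 without overlapping it, was the only 1 of the 14 whose groups did not overlap. Over all features this held for 1.48% with knockouts lower and 1.62% with knockouts higher. The log2 signal of S100a3 was 7.21, 7.14, 7.21 and 7.23 in knockouts 1 to 4 and 7.40, 7.32, 7.48 and 7.54 in controls 1 to 4. The difference was -0.24 ± 0.06 (limma adjusted p = 0.628), in a gene above only 18.4% of features. The other neighbours S100a4 and S100a6 differed by -0.04 ± 0.11 and -0.14 ± 0.17. S100a8 and S100a9, genes of myeloid cells, differed by -0.56 ± 0.45 and -0.54 ± 0.44, and markers of myeloid cells averaged 9.10 to 9.24 in knockouts and 9.11 to 9.94 in controls, with control 2 the highest.

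The nephrin-like genes gave a mixed picture. Kirrel, the third gene of the Kirrel family, was higher in every knockout, at 10.76, 10.86, 10.90 and 10.83 in knockouts 1 to 4 and 10.73, 10.63, 10.76 and 10.71 in controls 1 to 4. The difference was 0.13 ± 0.05 (limma adjusted p = 0.910), with knockout 1 and control 3 almost level. Groups without overlap and with knockouts higher were found for 1.62% of all features. Nphs1, which encodes nephrin and lies beside Kirrel2, differed by -0.13 ± 0.07. Rasgrp1, Rasgrp2 and Rasgrp3, the other Ras exchange factors of their family, differed by 0.03 ± 0.12, -0.02 ± 0.08 and 0.11 ± 0.12. Pcp4 differed by 0.34 ± 0.19, opposite in sign to its relative Pcp4l1 and with an interval that included 0. Of the other IQ-motif proteins listed with it, Nrgn differed by 0.04 ± 0.09 and Gap43 by -0.11 ± 0.05, with a 95% interval of -0.22 to -0.0030 (limma adjusted p = 0.910). Lrrc3 and Lrrc3c differed by -0.09 ± 0.05 and -0.09 ± 0.08.

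Some of the 6 share genomic sequence with other genes. In the RefSeq table Kirrel2 overlaps Gm45979, Kirrel3 overlaps Kirrel3os, Gm33561 and Gm45955, Rasgrp4 overlaps Fam98c by 1452 bases, and Lrrc3b overlaps B230110C06Rik. Whether array probes fall in the shared stretches was not tested.

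**Figure D2:**
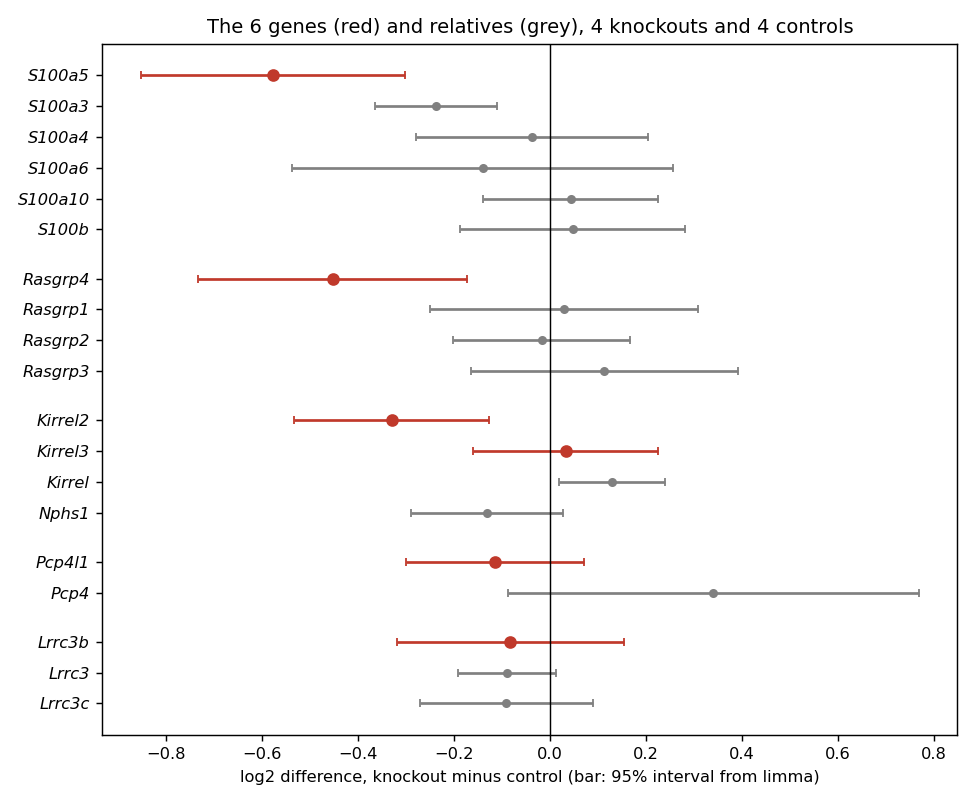
Log2 difference, knockout minus control (x axis), with its 95% interval from limma, for the 6 genes (red) and relatives from their families (grey). The intervals of S100a5, Rasgrp4, Kirrel2 and S100a3 lie below 0, that of Kirrel lies above it, and all others shown include 0.

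Genes of the route from odorant receptor to nucleus were read beside the 6. Of 14 measured genes of the olfactory cAMP cascade (the G protein, adenylyl cyclase, channels and phosphodiesterases), 8 were lower and 6 higher, with a median of -0.04, and the smallest limma p values were those of Pde4a (-0.16 ± 0.07) and Cnga4 (0.24 ± 0.12). Of 7 genes of the CREB family and its coactivators, 6 were higher and 1 lower, with a median of 0.02. Crem, whose short isoforms repress cAMP-responsive transcription, was at 8.39 to 8.43 in knockouts and 8.11 to 8.23 in controls, without overlap (0.23 ± 0.04, limma adjusted p = 0.373). It was the only 1 of the 7 without overlap, which held with knockouts higher for 1.62% of all features. The array value merges all exons and so does not separate its isoforms.

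Immediate early genes, the first to respond when a neuron fires, had a lower mean in knockouts for 13 of 14. This held for 48.6% of all features, and the median of the 14 differences was -0.08. Their list mean deviated from the average of all mice by -0.02, -0.10, -0.09 and -0.02 in knockouts 1 to 4. In controls 1 to 4 it deviated by -0.02, 0.15, -0.01 and 0.11. Controls 1 and 3 were thus near knockouts 1 and 4, and control 2, the array that stood apart, was highest. Of the 14 genes 0 passed adjustment. Dusp1 alone did not overlap between groups, where 1.48% of all features did not with knockouts lower. Dusp1, a phosphatase of MAP kinases, was at 11.40 to 11.62 in knockouts and 11.70 to 12.16 in controls (-0.33 ± 0.10, limma adjusted p = 0.794), and Egr2 differed by -0.19 ± 0.08. Of 11 other axon sorting molecules tied to activity or receptor identity, 6 were higher and 5 lower, with a median of 0.03. Among them Sema7a, a semaphorin of active OSN axons, averaged 9.96 ± 0.06 in knockouts and 10.24 ± 0.21 in controls (SD, n = 4 each, -0.29 ± 0.10, limma adjusted p = 0.907). Nrp1, a semaphorin receptor, was at 11.30 to 11.46 in knockouts and 11.07 to 11.32 in controls (0.19 ± 0.06, limma adjusted p = 0.891).

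Each mouse tended to be high or low in most of the 6 genes at once. As the mean of the 6 deviations from the average of all mice, knockouts 1 to 4 stood at -0.25, -0.11, 0.01 and -0.16 and controls 1 to 4 at 0.21, 0.15, -0.10 and 0.24. Knockout 3 and control 3 were thus the mice least like their groups. All 6 genes lay below their own average in knockouts 2 and 4, 5 of 6 in knockout 1 and 3 of 6 in knockout 3. In controls 1 and 4 this held for 0 of 6, in control 2 for 1 and in control 3 for 5. Knockout 3 was low in S100a5 and Rasgrp4, near average in Kirrel2, and high in Kirrel3, Pcp4l1 and Lrrc3b.

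**Figure D3:**
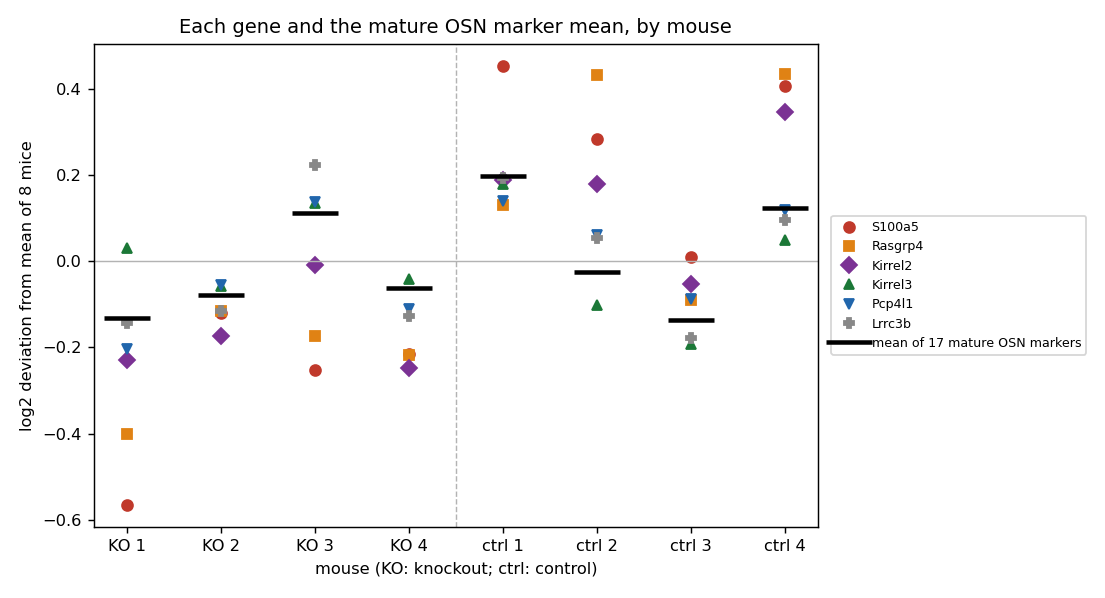
Log2 deviation of each gene from its mean over 8 mice (y axis) in knockouts 1 to 4 and controls 1 to 4 (x axis, dashed line between the groups), with the mean deviation of 17 mature OSN markers as a black bar. The symbols follow the black bar for Kirrel3, Pcp4l1 and Lrrc3b, while S100a5, Rasgrp4 and Kirrel2 lie below it in every knockout.

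To see whether the genes moved together beyond the difference between genotypes, each value was taken as a deviation from the mean of its own group. All 15 pairs then correlated positively over the 8 mice, with a median Pearson r of 0.70 (Spearman rho 0.62). A member's r with all features had a median between -0.07 and 0.01, and its 95th percentile lay between 0.64 and 0.76. By an exact permutation within groups (all reassignments, two-sided, smallest possible p 0.00174), 5 of 15 pairs had p under 0.05 and 1 passed adjustment over the 15. This was Pcp4l1 with Lrrc3b (r = 0.95, rho = 0.95, exact permutation p = 0.00174, adjusted p = 0.026 for both measures), whose r was 0.98 without control 1 and knockout 1, the mice farthest from the median of Pcp4l1. Even so, 49 features had a higher r with Pcp4l1 than Lrrc3b had, and 49 had a higher r with Lrrc3b than Pcp4l1 had.

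The next pairs did not pass. Kirrel2 with Pcp4l1 gave r = 0.85 (rho = 0.83, exact permutation p = 0.0156, adjusted p = 0.0781), and r = 0.91 without controls 1 and 4. Kirrel3 with Lrrc3b gave r = 0.84 (rho = 0.74, exact permutation p = 0.0104, adjusted p = 0.0781), and r = 0.76 without controls 1 and 3. Kirrel2 with Lrrc3b gave r = 0.84 (rho = 0.90, exact permutation p = 0.0243, adjusted p = 0.0911), and r = 0.95 without controls 1 and 4. S100a5 and Rasgrp4, the genes that differed most between genotypes, gave r = 0.70 (rho = 0.50, exact permutation p = 0.0608, adjusted p = 0.152), and r = 0.93 without control 1 and knockout 1. Kirrel2 with Kirrel3, the adhesion genes known for opposite use, gave r = 0.70 (rho = 0.69, exact permutation p = 0.111, adjusted p = 0.180), and r = 0.81 without controls 1 and 4. Kirrel3 with Rasgrp4 was the weakest pair, at r = 0.18. Control 3 weighed on these values, since the median r over the pairs was 0.44 without it and up to 0.74 when another mouse was left out.

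The signal of mature OSN markers was set beside that of each of the 6 genes. The mean of 17 measured mature OSN markers deviated by -0.13, -0.08, 0.11 and -0.06 in knockouts 1 to 4 and 0.20, -0.02, -0.14 and 0.12 in controls 1 to 4, so it was again high in knockout 3 and low in control 3. This relation was examined after the values had been seen, in 6 tests adjusted together. Within groups, Lrrc3b followed the marker mean with r = 0.93 (rho = 0.88, exact permutation p = 0.00347, adjusted p = 0.0104), Pcp4l1 with r = 0.90 (rho = 0.88, exact permutation p = 0.00347, adjusted p = 0.0104) and Kirrel3 with r = 0.92 (rho = 0.86, exact permutation p = 0.0122, adjusted p = 0.0243). For Kirrel3 the rank correlation did not pass (adjusted p = 0.0764 by exact permutation). Without controls 1 and 4 these r values were 0.97 for Lrrc3b, 0.97 for Pcp4l1 and 0.78 for Kirrel3.

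With all mice, the genes that differed most between genotypes had lower r values with the markers than Lrrc3b, Pcp4l1 and Kirrel3 had. Kirrel2 gave r = 0.81 (rho = 0.74, exact permutation p = 0.0382, adjusted p = 0.0573), S100a5 r = 0.71 (rho = 0.69, exact permutation p = 0.0851, adjusted p = 0.102) and Rasgrp4 r = 0.42 (rho = 0.36, exact permutation p = 0.411, adjusted p = 0.411). Without controls 1 and 4 they were 0.90 for Kirrel2, 0.50 for S100a5 and 0.58 for Rasgrp4. Leaving out 1 mouse moved the r of Rasgrp4 most, to -0.13 without control 3 and 0.69 without control 1, and that of S100a5 was 0.49 without control 3 and up to 0.85 without knockout 2. That of Kirrel2 ran from 0.65 without control 3 to 0.94 without control 1. Without control 1 it lay above those of Pcp4l1 (0.93), Lrrc3b (0.92) and Kirrel3 (0.88), so the order depended on the mice included. Whether these r values differ from those of Lrrc3b, Pcp4l1 and Kirrel3 was not tested.

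When each array was scaled to the mature OSN markers, fewer pairs were positive. Omp is among these markers, and its signal was highest in controls 1 and 4. The median r was 0.10, 9 of 15 pairs were positive and 0 passed adjustment (2 at an unadjusted p under 0.05). Pcp4l1 with Lrrc3b gave r = 0.49 (exact permutation adjusted p = 0.584), while S100a5 with Rasgrp4 kept r = 0.60 (exact permutation p = 0.031, adjusted p = 0.234) and Kirrel2 with Rasgrp4 r = 0.78. Scaling to the cAMP cascade, which shares 10 genes with the marker list, gave a median r of 0.16.

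**Figure D4:**
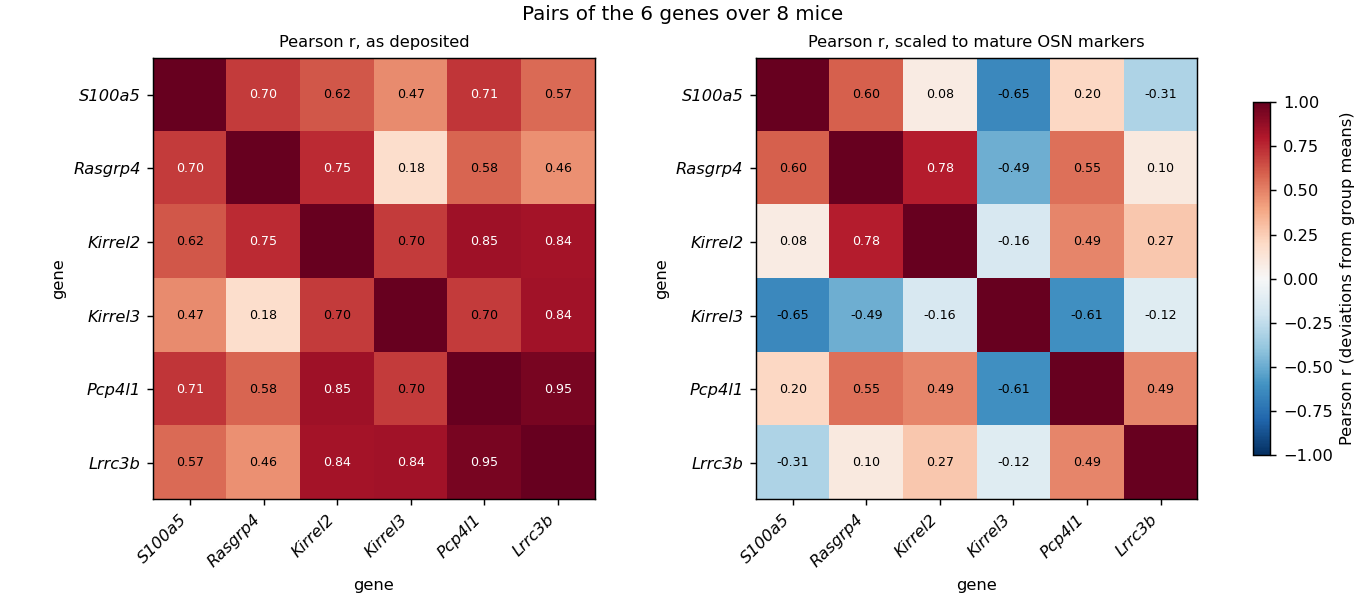
Pearson r of deviations from group means over 8 mice for each pair of the 6 genes (rows and columns), as deposited (left) and after scaling each array to the mature OSN markers (right). All 15 pairs are positive at left, with a median of 0.70, and 9 of 15 at right, with a median of 0.10.

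S100a5, Rasgrp4 and Kirrel2 kept lower means in knockouts under this scaling, which moved the median difference over all features to 0.08. Scaled S100a5 was 12.39, 12.78, 12.46 and 12.67 in knockouts 1 to 4 and 13.08, 13.13, 12.97 and 13.10 in controls 1 to 4, still without overlap (-0.50 ± 0.11, limma adjusted p = 0.508). Scaled Kirrel2 was 10.98, 10.98, 10.95 and 10.89 in knockouts 1 to 4 and 11.06, 11.28, 11.16 and 11.30 in controls 1 to 4. Its groups no longer overlapped, with a difference of -0.25 ± 0.10 (limma adjusted p = 0.914). Scaled Rasgrp4 did overlap, since knockout 2 (9.01) lay above control 1 (8.98), at -0.37 ± 0.13. Scaled differences were 0.11 ± 0.09 for Kirrel3, -0.03 ± 0.09 for Pcp4l1 and -0.0021 ± 0.09 for Lrrc3b. Scaled Kirrel3 did not overlap, with knockouts higher, at 10.13 to 10.27 in knockouts and 10.03 to 10.09 in controls. Under this scaling 67 of 21789 features did not overlap with knockouts lower, and 437 with knockouts higher. Of the 17 markers themselves, 13 were lower and 4 higher in knockouts as deposited, with a median of -0.04, and Omp differed by -0.27 ± 0.19. The smallest limma p values among them were those of Cidea (-0.43 ± 0.11, limma adjusted p = 0.660) and Rtp2 (-0.26 ± 0.09, limma adjusted p = 0.910). Cidea, above 33.7% of features by mean signal, was the only 1 of the 17 without overlap, with knockouts lower. This held for 1.48% of all features.

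**Figure D5:**
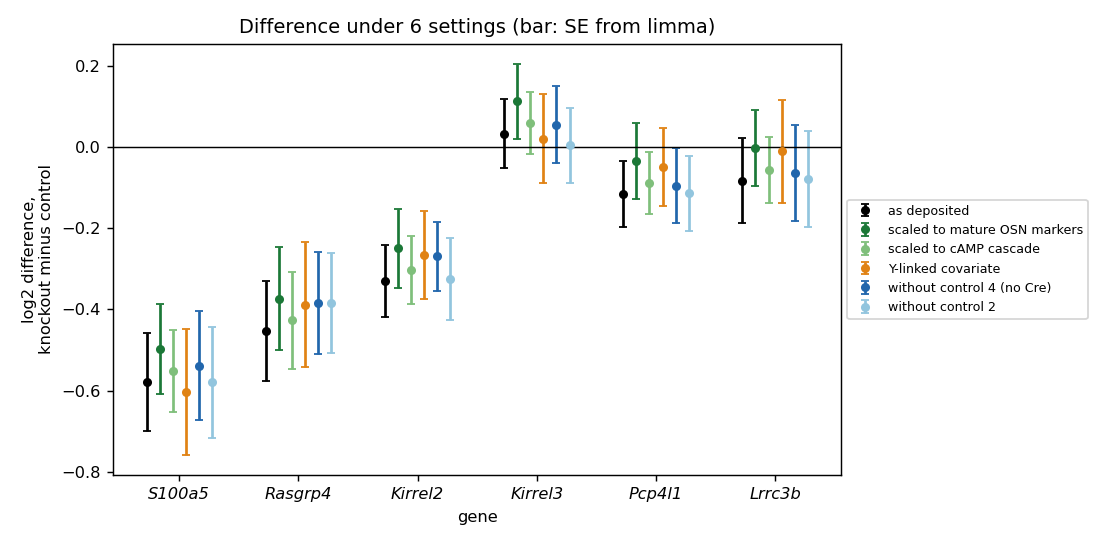
Log2 difference, knockout minus control, with its SE from limma (y axis), for the 6 genes (x axis) as deposited and under 5 other settings. S100a5 stays between -0.60 and -0.50 and Kirrel3 between 0.0042 and 0.11, while Lrrc3b reaches -0.0021 with scaling to mature OSN markers.

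Other cell types and sample traits were read for the same mice. Mast cell markers, relevant to Rasgrp4, had a list mean of 7.15 to 7.21 in knockouts and 7.14 to 7.21 in controls. Of the 9 markers, 6 had a higher and 3 a lower mean in knockouts. Their defining genes Cma1, Mcpt4 and Cpa3 lay above only 9.6%, 7.3% and 21.9% of features, but Hdc lay above 41.8% and Gata2 above 68.2%. Mcpt4 differed by -0.18 ± 0.07 (limma adjusted p = 0.910), Cma1 by 0.02 ± 0.05 and Cpa3 by 0.02 ± 0.18. Of 12 markers of immature OSNs, 9 had a lower and 3 a higher mean in knockouts, with a median of -0.06. The smallest limma p values were those of Ddit3 (-0.21 ± 0.06) and Trib3 (-0.20 ± 0.07). The defining markers Gap43 (-0.11 ± 0.05) and Gng8 (0.08 ± 0.08) differed in sign. All 5 measured progenitor markers had a higher mean (Kit 0.17 ± 0.07, Neurod1 0.29 ± 0.15). The mean difference of these 5 was 0.21 with all mice and 0.11 without control 2, where 4 of the 5 were higher. Sustentacular markers were level, at 12.72 to 12.94 in knockouts and 12.77 to 12.91 in controls. None of these genes passed adjustment, and their part in the values of the 6 was not tested.

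Y-linked genes, absent from females, split the groups unevenly. The mean of 3 of them deviated from the average of all mice by -1.999, -1.77, 1.68 and -1.54 in knockouts 1 to 4 and by -0.96, 1.58, 1.49 and 1.53 in controls 1 to 4. High signal was thus seen in 1 knockout and 3 controls, and control 1, counted here among the low mice, lay above the low knockouts. Among the mice with high Y-linked signal, S100a5 was 12.57 in the knockout and 13.05 on average in the controls (-0.49), and among those with low signal 12.52 on average in the knockouts and 13.27 in the control (-0.75). The same comparison gave -0.43 and -0.37 for Rasgrp4 and -0.17 and -0.40 for Kirrel2. Kirrel3 gave 0.22 and -0.20, Pcp4l1 0.11 and -0.26, and Lrrc3b 0.23 and -0.32, each turning its sign between the sets, of which each holds 1 mouse of one genotype. With Y-linked signal as a covariate the differences were -0.60 for S100a5, -0.39 for Rasgrp4 and -0.27 for Kirrel2. Without control 2, the array that stood apart, they were -0.58, -0.38 and -0.32 for the same genes, and without control 4, the mouse labelled as lacking Cre, -0.54, -0.38 and -0.27.

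Without controls 1 and 4, the mice of high Omp signal, 2 controls were left beside 4 knockouts. S100a5 differed by -0.44 ± 0.14 (limma adjusted p = 0.485) and Rasgrp4 by -0.40 ± 0.15 (limma adjusted p = 0.531). The groups of these genes did not overlap with all mice, so leaving mice out could not make them overlap. Kirrel2 overlapped (-0.23 ± 0.10, limma adjusted p = 0.578). Kirrel3 was then higher in every knockout than in the remaining controls (0.16 ± 0.07, limma adjusted p = 0.594). With so few controls, 1834 of 21789 features did not overlap with knockouts lower, and 2157 with knockouts higher. Pcp4l1 differed by -0.04 ± 0.10, and Lrrc3b turned its sign, at 0.02 ± 0.13.

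Lastly, the features whose deviations followed each of the 6 most closely over the 8 mice were listed among those above the median signal, as a description. For S100a5 they were Rrnad1 (r = 0.97), Rnf141 (0.96) and D430042O09Rik (0.95), and for Rasgrp4 Ndufb11 (0.99), Ube3b (0.96) and Ndel1 (0.96). For Kirrel2 they were Washc5 (0.99), Syt11 (0.98) and Rbm11 (0.98), and for Kirrel3 Fgf12 (0.99), Rbm17 (0.99) and Chac2 (0.99). For Pcp4l1 they were Sgpl1 (0.99), Ksr2 (0.98) and Scn9a (0.98), the last a sodium channel of OSNs, and for Lrrc3b Faim2 (0.99), D430042O09Rik (0.98) and Ccnjl (0.98). D430042O09Rik appeared for both S100a5 and Lrrc3b, and no entry was one of the 6 genes themselves. Such values are the highest of 10893 compared (10894 for Rasgrp4), over only 8 mice.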

How the data were processed

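Total RNA of the olfactory mucosa of 8 P1 mice was hybridised by the authors to Affymetrix Mouse Gene ST arrays, 1 mouse per array. Per transcript cluster, the deposited table holds 1 log2 signal for each array, which merges the probe sets of all exons of a gene. Affymetrix Expression Console is the tool in the submitters' processing notes. Which algorithm it ran was not given in the sources used here. Values ran from 2.65 to 14.9 and were not transformed again. The number of arrays limits the precision.

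Of 35557 clusters, 21789 carried exactly 1 gene symbol in the platform annotation and were tested, 1621 carried several and 12147 were unnamed. Genotype groups came from the labels. Knockouts were compared with controls by limma 3.58.1 (R 4.3.3, lmFit and eBayes, two-sided, Benjamini-Hochberg over the 21789 clusters, threshold 0.05), and the test was checked on simulated data. Correlations used deviations from group means, with exact permutation within groups (Python 3.11.15, numpy 2.4.6, scipy 1.17.1). The alternatives were the methods' t-test, scaling to mature OSN markers or to the cAMP cascade, quantile normalization, array weights, a Y-linked covariate, a filter at the median signal, a trended robust prior, and leaving out each mouse. Alternative clusters of a gene could not be tried, since each of the 6 genes has 1.

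The 6 genes, the gene lists and the rule for named genes (the 6, their families, Emx2, Lhx2 and Omp, the 2 smallest limma p values of each other list, and the 3 most alike clusters of each of the 6) were chosen with earlier results of these data known. Some genes under this rule, such as the myeloid genes Tyrobp and Lyz2, were not described above. A gene left out therefore need not have had a larger limma p than those given. Omitting controls 1 and 4 together, the relation to the marker mean, the split by Y-linked signal and the subtraction of Kirrel3 from Kirrel2 were added after seeing the values.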

Additional observations from a re-analysis of the deposited data

Results flagged for a closer look

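Among 18 sets of 4 mice examined for a single distant mouse (the 6 genes, Emx2, Lhx2 and Omp in each group), Dixon's test at the 95% level singled out 1. That level applies to each set and was not adjusted for the 18 sets, so 1 set may be singled out by chance. Lrrc3b in knockout 3 had a log2 signal of 10.0574, while the other knockouts lay between 9.69 and 9.72. The gap made up 0.924 of the range of the group, above Dixon's critical value for 4 mice. In the same mouse the mean of the mature OSN markers was 0.11 above the average of all mice and below it in the other knockouts (-0.13 to -0.06), and whether this bears on Lrrc3b was not tested. The Lrrc3b difference was -0.17 without knockout 3, against -0.08 with all mice.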

How the results depend on the processing

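None of the 6 genes passed the adjusted threshold in any of 17 alternatives (16 for Rasgrp4, which was below the median signal and has no value under that filter). S100a5, Rasgrp4, Kirrel2 and Pcp4l1 kept a negative difference in all of them, and Lrrc3b turned to 0.0204 when controls 1 and 4 were omitted. The lowest limma adjusted p over these was 0.315 for S100a5, 0.404 for Kirrel2 and 0.399 for Rasgrp4. Kirrel3 turned from 0.03 to -0.0064 without knockout 3 and to -0.0253 without control 3. The number of clusters past adjustment was 0, but 4 with scaling to mature OSN markers, 2 with scaling to the cAMP cascade, 5 with array weights, 2 among clusters above the median signal, 18 without controls 1 and 4 (none of the 6 genes), and 0 to 1 when 1 mouse was left out (1 without control 3). The median r over the 15 pairs was 0.10 (0.0962) with scaling to mature OSN markers, 0.16 (0.162) with scaling to the cAMP cascade, and 0.44 (0.438, without control 3) to 0.74 when 1 mouse was left out. The count of clusters at an unadjusted limma p under 0.01 was 131 lower and 133 higher, against 39 and 138 with scaling to mature OSN markers, 73 and 86 with the cAMP cascade, 59 and 91 with the Y-linked covariate, 198 and 156 when arrays were weighted, 82 and 81 for clusters brighter than the median, and 265 and 211 without controls 1 and 4. When 1 mouse was left out, the lower count ran from 57 (without knockout 4) to 184 (without control 3) and was 61 without control 4 and 85 without knockout 1, and the higher count ran from 78 (without knockout 4) to 214 (without knockout 3). The causes of these shifts were not tested. No paired analysis was possible because the labels number no replicates and name no litters, and the numbers used here follow the accessions.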
